A study of Mus musculus with 12 samples.

Results

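The genes described here encode the digestive enzymes and granule proteins of the exocrine pancreas, together with transcription factors of the acinar cell, as they were read in RNA from isolated mouse islets. The list holds 34 genes, and 31 of them had a probe on the Agilent array whose RefSeq accession leads to the gene symbol, out of 17305 genes named this way. Ctrc, Prss1 and Amy2b had none and were not analysed here. Where a gene had several probes, the brightest over the 12 arrays stood for it.

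Islets were taken from female mice of the mixed C57BL/6 x Sv129 background on a chow diet, at an age of 4 weeks per the labels, while the text of the study puts the animals a week older. The 4 genotypes had 3 arrays each. WT mice carried neither deletion. PPARg2KO mice lack PPARγ2, the isoform of the nuclear receptor PPARγ best known from adipose tissue. OB mice are the leptin-deficient ob/ob mice, which are obese and insulin resistant, and DKO mice carry both defects and are called POKO in the study. Both defects are present in the whole animal, so nothing ties a difference to the islet cells themselves. Per the methods, islets were picked by hand after collagenase digestion of the pancreas and cultured overnight, and each array was hybridised with RNA pooled from several mice. The spread between arrays is therefore the spread between pools.

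Acinar cells make up most of the pancreas and surround the islets. They pack inactive enzyme precursors into zymogen granules and release them into the ducts, where they reach the gut and are activated. Hand-picked islets usually bring some acinar tissue along, and in RNA from a whole preparation fewer acinar cells and less RNA per acinar cell cannot be told apart.

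A complex of PTF1A, a common bHLH partner and RBPJL drives many of these genes, and it binds an E box next to a TC box. The 250 bases before the start site were therefore searched on both strands for CACCTG (E box, CAGGTG on the other strand), TTTCCCA (TC box, TGGGAAA) and AAGGTCA (the core of the NR5A2 site, TGACCTT), using the RefSeq promoter windows of build GRCm38.p6, which hold 27 of the 34 genes. CACCTG was present in 16 of the 27 genes (59.3%), against 19.4% of all 27025 genes with a window. TTTCCCA was present in 5 (18.5%, against 7.77%) and AAGGTCA in 4 (14.8%, against 4.70%). Cel, Cela2a and Prss2 held both CACCTG and TTTCCCA (11.1%, against 1.37%), and 9 genes held none of the 3. The count of both words sets no distance between them. CACCTG and TTTCCCA began 65 and 87 bases before the start in Cel (the nearest pair), 218 and 85 in Cela2a and 169 and 111 in Prss2. No matches overlapped each other. The sequences below show the 3 genes with both boxes, Serpini2, whose signal varied most between the arrays, and Gp2, the single member that passed the criteria in any comparison. They run 5′ to 3′ along the gene, and capitals mark the matches.
Cel (chr2:28563404-28563653, minus strand): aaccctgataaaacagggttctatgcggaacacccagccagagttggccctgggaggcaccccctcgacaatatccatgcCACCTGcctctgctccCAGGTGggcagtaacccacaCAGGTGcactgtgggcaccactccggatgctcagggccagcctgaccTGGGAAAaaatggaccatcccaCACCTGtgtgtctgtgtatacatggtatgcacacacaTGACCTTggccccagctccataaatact
Cela2a (chr4:141826006-141826255, minus strand): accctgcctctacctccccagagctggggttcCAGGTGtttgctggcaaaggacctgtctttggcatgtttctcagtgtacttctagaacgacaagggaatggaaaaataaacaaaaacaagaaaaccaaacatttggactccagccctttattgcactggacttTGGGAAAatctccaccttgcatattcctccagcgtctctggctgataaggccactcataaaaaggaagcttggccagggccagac
Prss2 (chr6:41521526-41521775, plus strand): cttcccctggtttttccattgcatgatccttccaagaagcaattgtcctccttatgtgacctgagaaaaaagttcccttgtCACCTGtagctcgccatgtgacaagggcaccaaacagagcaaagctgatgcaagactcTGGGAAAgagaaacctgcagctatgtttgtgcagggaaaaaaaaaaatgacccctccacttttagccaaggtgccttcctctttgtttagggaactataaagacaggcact
Serpini2 (chr3:75270079-75270328, minus strand): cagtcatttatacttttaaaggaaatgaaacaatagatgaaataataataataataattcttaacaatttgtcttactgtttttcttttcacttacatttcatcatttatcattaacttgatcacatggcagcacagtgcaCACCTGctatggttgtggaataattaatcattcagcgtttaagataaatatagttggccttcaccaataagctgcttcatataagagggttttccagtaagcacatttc
Gp2 (chr7:119459273-119459522, minus strand): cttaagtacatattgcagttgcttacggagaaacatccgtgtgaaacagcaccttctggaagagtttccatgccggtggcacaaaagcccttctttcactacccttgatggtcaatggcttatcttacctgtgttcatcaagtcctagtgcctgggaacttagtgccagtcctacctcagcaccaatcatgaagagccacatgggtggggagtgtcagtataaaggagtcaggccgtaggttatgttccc
Gp2 carries none of the 3 words in this window, and Serpini2 carries one CACCTG. Among the 25 genes with both a window and a probe, the median log2 fold change in OB against WT was -0.22 for the 14 with CACCTG and -0.20 for the 11 without it. It was 0.030 for the 5 with TTTCCCA, whose median log2 signal was 17.9996, and -0.42 for the 20 without it, at a median log2 signal of 16.85, and -0.30 for the 3 with AAGGTCA and -0.17 for the 22 without it. These matches are descriptions of the sequence and not measured binding sites.

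The arrays were read first for what sets them apart. Between 54.3% and 64.9% of the probes were well above background on an array. The share was 54.3% to 57.5% in WT and 57.1% to 60.9% in PPARg2KO. It was 60.4% to 64.9% in OB and 61.4% to 61.5% in DKO, above every WT array. The 12 arrays correlated with each other at r between 0.93 and 0.99. Pparg, the gene of the deleted isoform, lay between 8.54 and 9.77 on the log2 scale in the WT and OB arrays and between 6.41 and 7.44 in the PPARg2KO and DKO arrays. The Lep probe was well above background on only 2 arrays, and so it checks nothing. Of the markers of the labelled tissue, the hormone genes Ins2, Ins1 and Gcg were among the 41 brightest probes. T and B cell genes split the arrays in a way the genotype labels do not: their mean deviation from their own means was -1.60 or lower in the 3 WT arrays and in PPARg2KO replicates 1 and 3, but 1.66 in PPARg2KO replicate 2 and between 0.59 and 1.75 in the OB and DKO arrays. PPARg2KO replicate 2 thus stands apart from its group, and without it the median log2 fold change of the exocrine genes in PPARg2KO against WT was -0.03, against -0.02 with it, while it was -0.14 without PPARg2KO replicate 1 and 0.055 without PPARg2KO replicate 3.

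All 31 exocrine genes were well above background on all 12 arrays, and none of their spots was saturated. Together they made up between 9.48% and 11.4% of the summed normalized signal of an array. A mean log2 signal of 17 or more was found in 16 of them, a level that 41 of the 41174 probes reached (the limit of 17 was set after the values were seen). In the processed signal before normalization the share was 11.3% ± 0.68 in WT, 11.3% ± 1.41 in PPARg2KO, 9.67% ± 0.38 in OB and 10.9% ± 0.24 in DKO (SD, n = 3 each). The highest OB array, at 10.04%, lay below the lowest WT array, at 10.6%, and below the lowest DKO array, at 10.7%, while PPARg2KO spanned 9.72% to 12.5%. After quantile normalization the groups overlapped, at 10.9% ± 0.32, 10.97% ± 0.76, 10.4% ± 0.83 and 10.9% ± 0.26.

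Array by array, OB replicate 1 was the lowest of the 12 arrays in 15 of the 31 genes after quantile normalization. PPARg2KO replicate 1 was the highest in 9 and WT replicate 1 in 6. Within the WT arrays replicate 3 was the lowest in 16 genes, and within PPARg2KO replicate 3 was the lowest in 17. The mean deviation of the 31 genes from their own means ran from -0.41 in OB replicate 1 to 0.31 in PPARg2KO replicate 1, and the 3 DKO arrays kept within -0.01 and 0.05.

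**Figure D1:**
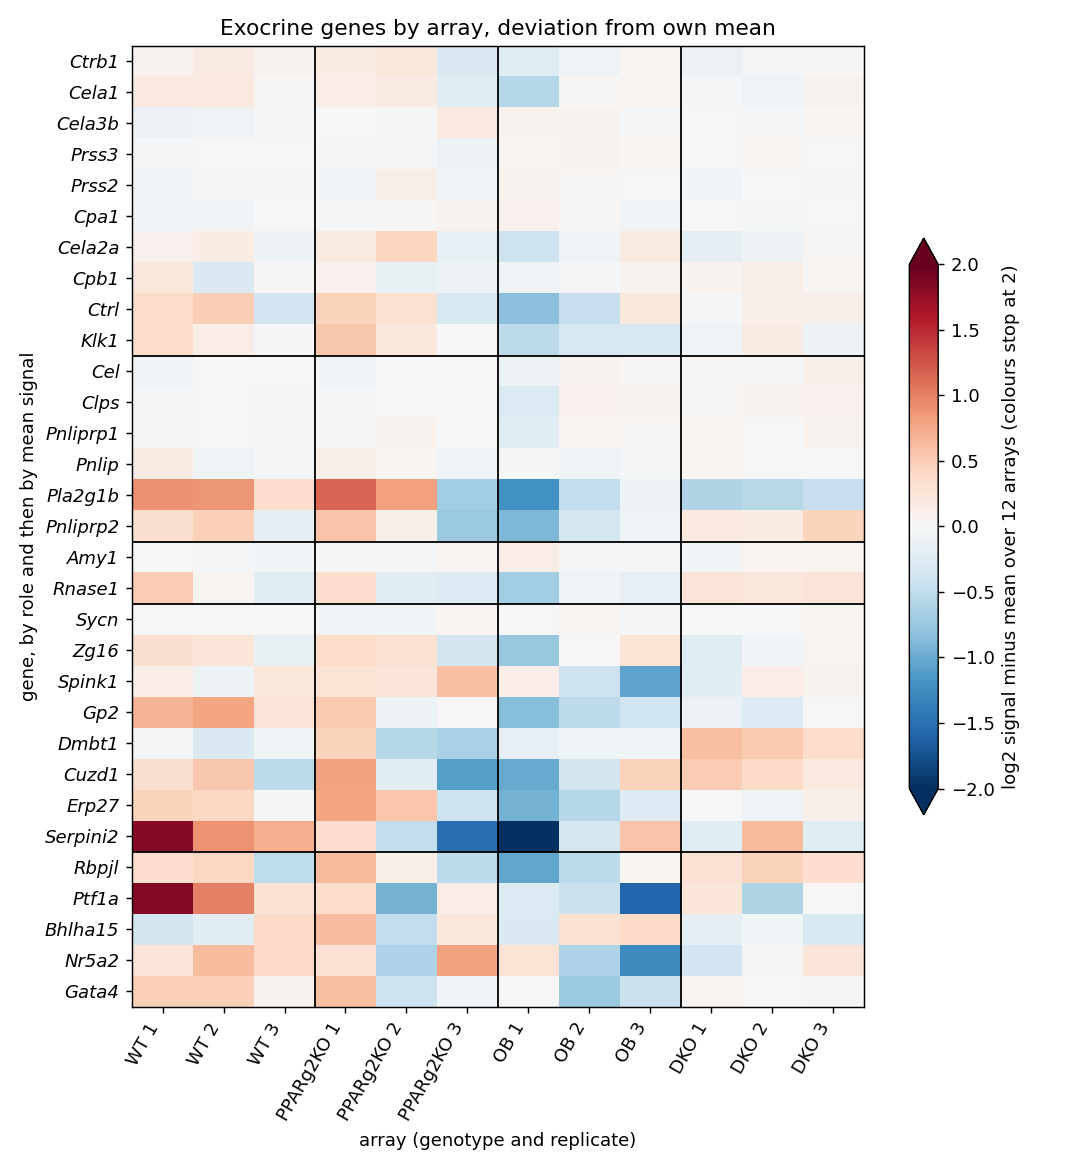
Log2 signal of the 31 exocrine genes (rows, by role and then by mean signal) on the 12 arrays (columns, by genotype and replicate), as the deviation from the gene's own mean. The row of Sycn is nearly white, while OB replicate 1 holds the lowest value in 15 of the 31 genes after quantile normalization.

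How far a gene ranged over the arrays followed its brightness. The 16 genes with a mean log2 signal of 17 or more had a median range of 0.30, whereas the 6 genes between 15 and 17 had one of 1.45, the 2 between 12 and 15 one of 1.69, the 5 between 9 and 12 one of 1.74, and the 2 under 9 one of 2.66. All probes that were well above background on every array had median ranges of 0.45, 0.67, 0.77, 0.80 and 1.12 in the same classes. The narrow range at the top is thus shared with other probes, and below it the median ranges of the exocrine genes were wider than those of probes of like brightness. Quantile normalization gives every array the same set of values, so a gene that keeps its rank among the brightest probes is handed nearly the same value on every array. The widest ranges were those of Serpini2 (3.98), Ptf1a (3.42), Pla2g1b (2.38) and Nr5a2 (2.09), and the narrowest was that of Sycn (0.08).

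**Figure D2:**
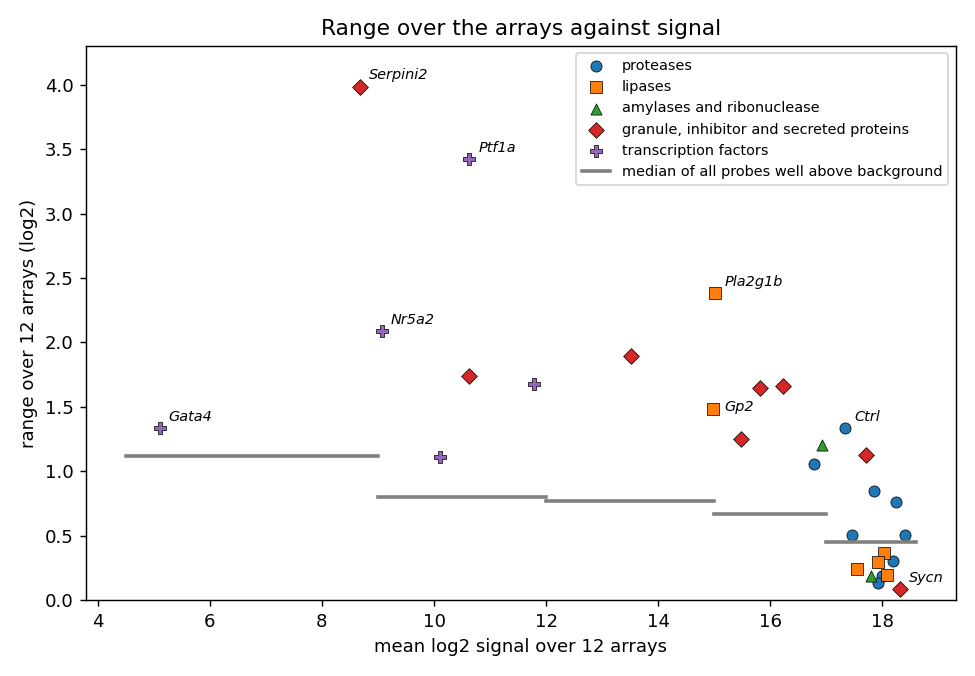
Range over the 12 arrays (log2, vertical axis) against the mean log2 signal (horizontal axis) of the 31 exocrine genes, with the marker showing the role and grey lines the median range of all probes well above background in each class of signal. Serpini2 and Ptf1a range over 3.98 and 3.42, and the genes above 17 have a median range of 0.30.

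The first comparison, OB against WT, asks what leptin deficiency does to the islet preparation while PPARγ2 is intact. Of the 31 exocrine genes 21 had a lower mean in OB, where 60.3% of all probes did, and the median log2 fold change was -0.30, against -0.08 for all probes. Under the criteria (adjusted p at or under 0.05 and a log2 fold change of 1 or more in size) a single gene, Gp2, was called, and it fell; 5.47% of all probes were called in either direction and 1.91% as lower. At an unadjusted p below 0.05 there were 7 genes, all lower (22.6% of the members), where 31.1% of all probes passed in either direction and 18.8% as lower. In 8 genes every OB array lay below every WT array (29.9% of all probes) and in 1 gene above (11.3%). On the quantile scale, these shares are near those of all probes. Under quantiles the median rested much on a single array, since without OB replicate 1 it was -0.064.

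The median difference between OB and WT was larger in the dimmer genes. Of the 15 genes with a mean log2 signal under 17, 13 were lower in OB, with a median difference of -0.64, whereas the 16 brighter genes had a median of 0.00 with 8 lower, and all 16 were lower when each array was scaled by its 75th percentile instead. All 7 genes with an unadjusted p below 0.05 were among the dimmer ones.

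Gp2, the glycoprotein of the zymogen granule membrane, had log2 signals of 16.50, 16.61 and 16.08 in WT, 16.34, 15.73 and 15.83 in PPARg2KO, 14.97, 15.29 and 15.42 in OB and 15.70, 15.56 and 15.82 in DKO. The OB arrays were the 3 lowest of all 12 and the WT arrays did not overlap with either obese group. It fell in OB against WT by 1.17 on the log2 scale (SE 0.20, limma adjusted p = 0.0195). Each slide carried 1 array of every genotype, and within the 3 slides the difference was -1.53, -1.32 and -0.66. Left-out arrays mattered here: the adjusted p was 0.0622 without WT replicate 1, 0.0781 without WT replicate 2 and 0.0586 without OB replicate 2. In DKO against WT the log2 difference was -0.70 (limma adjusted p = 0.139), and in DKO against OB it was 0.47 (limma adjusted p = 0.532), so a difference between the obese genotypes was not shown.

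Among the other granule, inhibitor and secreted proteins, Serpini2, a pancreatic serpin, gave 10.50, 9.57 and 9.40 in WT, 9.01, 8.19 and 7.17 in PPARg2KO, 6.52, 8.32 and 9.25 in OB and 8.45, 9.30 and 8.43 in DKO. All 9 arrays of the mutants were below the 3 WT arrays, but the OB arrays alone were spread over 2.73 on the log2 scale. The differences from WT were -1.80 in OB (limma adjusted p = 0.116), -1.70 in PPARg2KO (limma adjusted p = 0.514) and -1.10 in DKO (limma adjusted p = 0.473). Erp27, a chaperone-like protein of the endoplasmic reticulum, was at 11.07, 11.05 and 10.61 in WT and at 9.68, 10.06 and 10.38 in OB, without overlap, and its log2 difference was -0.88 (limma adjusted p = 0.0854).

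Spink1, the trypsin inhibitor packed with the enzymes, had 16.37, 16.13 and 16.45 in WT, 16.50, 16.46 and 16.83 in PPARg2KO, 16.37, 15.80 and 15.17 in OB and 15.99, 16.35 and 16.30 in DKO. Its highest OB array was replicate 1, the lowest array in so many other genes. It shared this with Ptf1a, Nr5a2 and Gata4, and 9 of the 31 genes had their highest OB value there, ties counted. Its log2 difference between OB and PPARg2KO was -0.82 (limma adjusted p = 0.148), with no overlap between them. Dmbt1, a large secreted scavenger protein of epithelia, had 15.45, 15.20 and 15.39 in WT, 15.92, 14.91 and 14.83 in PPARg2KO, 15.31, 15.39 and 15.43 in OB and 16.08, 16.005 and 15.84 in DKO. The DKO arrays lay above all WT and OB arrays, by 0.63 (limma adjusted p = 0.247) and 0.60 (limma adjusted p = 0.531) on the log2 scale. Zg16, a lectin of the granule, and Cuzd1, a granule membrane protein, had log2 differences of -0.30 and -0.42 in OB against WT, and Sycn, syncollin, had one of 0.00.

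The lipases were divided in the same manner. Pla2g1b, the secreted phospholipase A2, had 15.93, 15.91 and 15.35 in WT, 16.19, 15.84 and 14.33 in PPARg2KO, 13.81, 14.53 and 14.92 in OB and 14.41, 14.47 and 14.56 in DKO. Every OB and DKO array was below every WT array, whereas PPARg2KO replicate 3 fell among the obese arrays. The log2 difference from WT was -1.31 in OB (SE 0.45, limma adjusted p = 0.0870) and -1.25 in DKO (limma adjusted p = 0.216). Pnliprp2, a lipase that also takes galactolipids, had a log2 difference of -0.64 in OB against WT, with overlap. Cel, the bile salt activated lipase and the brightest probe of this group, was at 18.004, 18.08 and 18.09 in WT, 18.02, 18.08 and 18.08 in PPARg2KO, 17.99, 18.15 and 18.12 in OB and 18.12, 18.12 and 18.19 in DKO. Pnlip, the main pancreatic lipase, Clps, its colipase, and Pnliprp1 had log2 differences of -0.06, -0.01 and -0.04, all within the spread of the arrays.

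Of the 10 proteases, 5 were lower and 5 higher in OB than in WT, with log2 differences between -0.55 and 0.11, while all 10 were lower under the 75th percentile. The lowest was that of Klk1, tissue kallikrein, which had 17.13, 16.91 and 16.74 in WT, 17.31, 16.98 and 16.77 in PPARg2KO, 16.25, 16.45 and 16.45 in OB and 16.70, 16.92 and 16.66 in DKO. The OB arrays were the lowest of all 12, at a log2 difference from WT of -0.55 (SE 0.15, limma adjusted p = 0.0520) and from PPARg2KO of -0.64 (limma adjusted p = 0.0968). Ctrb1, chymotrypsinogen B and the brightest of the proteases, had 18.48, 18.57 and 18.48 in WT, 18.54, 18.62 and 18.12 in PPARg2KO, 18.15, 18.31 and 18.44 in OB and 18.28, 18.38 and 18.42 in DKO. Its 3 WT arrays were above all OB and DKO arrays, by 0.20 (limma adjusted p = 0.331) and 0.15 (limma adjusted p = 0.608). Ctrl, a chymotrypsin-like protease, and Cela1, an elastase, had log2 differences of -0.52 and -0.30, and both were lowest in OB replicate 1. The trypsinogens Prss2 and Prss3, the elastases Cela2a and Cela3b and the carboxypeptidases Cpa1 and Cpb1 lay between -0.14 and 0.11. Trypsinogen, amylase and kallikrein genes have close relatives, and which of them a probe reads was not tested because probe sequences were not used here.

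Rnase1, the pancreatic ribonuclease, was at 17.43, 16.98 and 16.72 in WT, 17.26, 16.72 and 16.66 in PPARg2KO, 16.23, 16.85 and 16.77 in OB and 17.18, 17.15 and 17.18 in DKO. The DKO arrays lay above all OB arrays, at a log2 difference of 0.55 (limma adjusted p = 0.532), and OB and WT overlapped. Amy1, an amylase, was at 17.80, 17.77 and 17.74 in WT, 17.75, 17.75 and 17.84 in PPARg2KO, 17.93, 17.75 and 17.77 in OB and 17.74, 17.84 and 17.84 in DKO. A second, dimmer Amy1 probe had a log2 difference of -0.24 in OB against WT, where the brighter one had 0.05, and neither passed (limma adjusted p = 0.378 and 0.687).

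Ptf1a, the bHLH factor that gives the acinar complex its name, had 12.46, 11.64 and 10.92 in WT, 10.98, 9.69 and 10.75 in PPARg2KO, 10.35, 10.18 and 9.04 in OB and 10.87, 10.03 and 10.61 in DKO. WT replicate 1 was the highest array by far, and all OB and DKO arrays were below all WT arrays. The log2 differences from WT were -1.82 in OB (SE 0.51, limma adjusted p = 0.0503), -1.17 in DKO (limma adjusted p = 0.294) and -1.20 in PPARg2KO (limma adjusted p = 0.521). Within the slides the OB difference was -2.12, -1.46 and -1.88. With the slide as a block it passed (limma adjusted p = 0.0379), but it did so in only 6 of the 21 alternatives run. Without WT replicate 1 the difference of Ptf1a had the highest value (limma adjusted p = 0.149). Rbpjl, the partner that completes the complex and the brightest factor, had 12.11, 12.19 and 11.28 in WT, 12.41, 11.88 and 11.25 in PPARg2KO, 10.74, 11.26 and 11.82 in OB and 12.08, 12.24 and 12.12 in DKO. Its DKO arrays lay above all OB arrays, at a log2 difference of 0.87 (limma adjusted p = 0.531). Nr5a2, a nuclear receptor of acinar and duct cells, had 9.32, 9.70 and 9.45 in WT, 9.36, 8.45 and 9.88 in PPARg2KO, 9.34, 8.46 and 7.79 in OB and 8.68, 9.10 and 9.31 in DKO, and its log2 difference in OB of -0.96 came with overlap. Gata4, a zinc finger factor and the dimmest member at a mean log2 signal of 5.11, differed by -0.73 in OB (limma adjusted p = 0.0951). Over the alternatives the Gata4 difference ran from -0.99 to -0.09, and with the 75th percentile it was -0.49 with overlap. Bhlha15, also known as Mist1 and needed for granule packing, differed by 0.20 on its brighter probe but by -0.50 (limma adjusted p = 0.265) on a second, dimmer one.

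**Figure D3:**
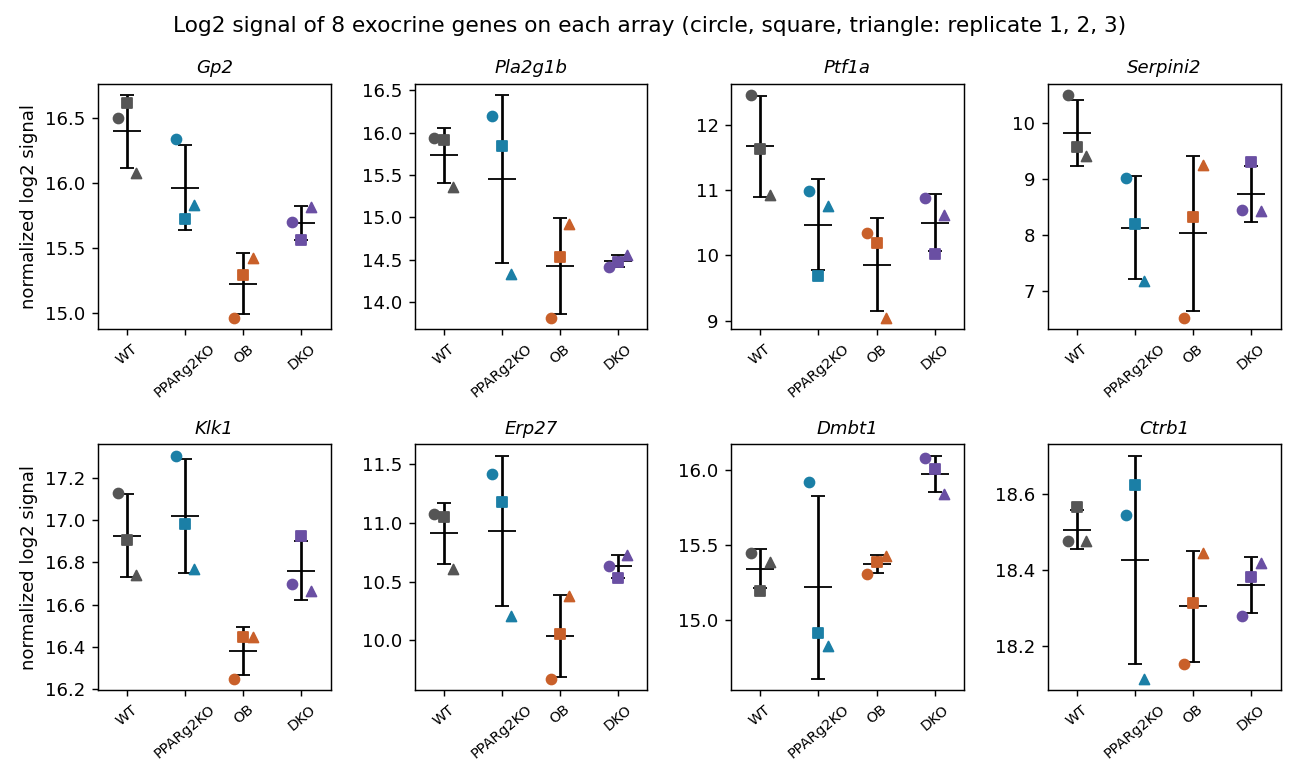
Normalized log2 signal of 8 exocrine genes (panels, each with its own axis) in the 4 genotypes, where circles, squares and triangles are replicates 1, 2 and 3, and the bars the mean and SD of 3 arrays. The OB arrays are below all WT arrays in Gp2, Pla2g1b, Ptf1a, Serpini2, Klk1, Erp27 and Ctrb1, and Dmbt1 is highest in DKO.

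How the arrays were scaled changed the picture of the bright enzymes. The 75th percentile of the processed signal was 239 to 269 in WT and 241 to 287 in PPARg2KO. It was 270 to 360 in OB and 288 to 321 in DKO, so this divisor was larger in every OB and DKO array than in any WT array. When the processed signal of each array was divided by its 75th percentile in place of quantiles, 30 of the 31 genes were lower in OB than in WT, with a median log2 fold change of -0.61, against 61.2% of all probes and a median of -0.19. There 2 genes passed the criteria, Gp2 (-1.46, limma adjusted p = 0.0171) and Ptf1a (-1.98, limma adjusted p = 0.0374), where 6.29% of all probes did. Bhlha15, at 0.08 on its brighter probe, was the gene that was not lower. The 16 brightest genes were all lower, with a median of -0.46, but so were 24 of the 25 other probes of that brightness, which had a median of -0.46 too. Those probes include Ins2, Gcg, Rplp0, Reg1 and Krt8, and the one that was not lower was Ins1, at 0.53. The shift at the top of the range was thus not particular to exocrine genes, and the scale itself sets whether the bright enzymes read as lower or level in OB.

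**Figure D4:**
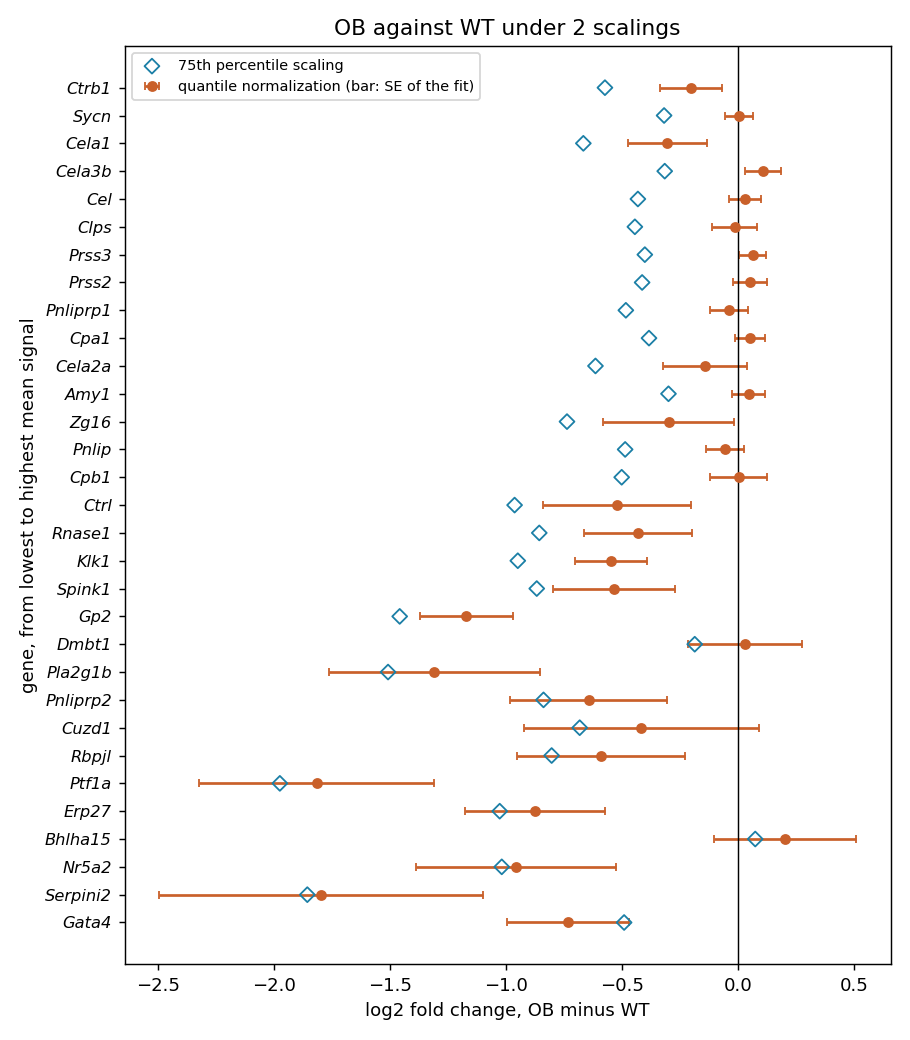
Log2 fold change of OB against WT (horizontal axis) for the 31 exocrine genes, ordered by mean signal, under quantile normalization (filled circles, with the SE of the fit) and 75th percentile scaling (open diamonds). Under quantiles 21 genes are below 0, and under the 75th percentile 30 are.

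DKO against WT asks what both defects do together. No exocrine gene passed the criteria, where 0.172% of all probes did. At an unadjusted p below 0.05 there were 4 (12.9% of the members, 16.4% of all probes), Gp2, Pla2g1b and Ptf1a as lower (9.52% of all probes) and Dmbt1 as higher (6.83%). The median log2 fold change was 0.00 and 15 of the 31 genes were lower, where 64.1% of all probes were. In 7 genes the DKO arrays lay below and in 3 above all WT arrays (25.6% and 9.23% of all probes). With the 75th percentile 28 of the 31 were lower (64.3% of all probes), at a median of -0.17, and none passed the criteria (0.767%).

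DKO against OB asks what the loss of PPARγ2 changes in obese mice. None of the 31 genes passed, and 1 of the 41174 probes did (0.00243%). An unadjusted p below 0.05 was found in 5 genes, all higher in DKO (16.1% of the members, where 4.91% of all probes were), namely Klk1, Dmbt1, Rbpjl, Rnase1 and Gp2, and their smallest adjusted p was 0.531. Of the 31 genes 25 were higher and 6 lower (45.9% of all probes were lower), and 8 lay in DKO above every OB array without overlap, where 8.78% of all probes did. The median log2 fold change was 0.10 under quantiles and 0.36 with the 75th percentile, where 30 of the 31 were higher and 44.5% of all probes were lower. Under quantiles it was 0.041 without OB replicate 1 and 0.17 without OB replicate 2. The OB arrays of this comparison are those of the comparison with WT, so that the 2 sets of differences are not independent of each other.

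PPARg2KO against WT asks about the loss of PPARγ2 in lean mice. No exocrine gene passed and none of the 41174 probes did, and Serpini2 and Ptf1a alone had an unadjusted p below 0.05 (6.45% of the members, 9.37% of all probes), both as lower (5.18%). The median log2 fold change was -0.02, with 19 of the 31 lower (58.4% of all probes) and 13 under the 75th percentile (59.2%). Serpini2 was lower and Spink1 higher in every PPARg2KO array than in any WT array (8.55% and 4.1% of all probes for either direction). The PPARg2KO arrays were far apart, since Pla2g1b went from 16.19 to 14.33 and Cuzd1 from 14.32 to 12.42 between replicates 1 and 3.

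OB against PPARg2KO gave no call (0.00486% of all probes) and 5 genes with an unadjusted p below 0.05, all lower in OB (16.1% of the members, where 11% of all probes were lower), namely Klk1, Gp2, Spink1, Erp27 and Pla2g1b. The median log2 fold change was -0.13 with 23 genes lower (58% of all probes), and -0.56 with all 31 lower under the 75th percentile (57.7%). Spink1, Klk1 and Gp2 were lower in OB without overlap (14.3% of all probes) and Prss3 was higher (7.27%), by 0.11. In DKO against PPARg2KO none passed (0.00486% of all probes), and Dmbt1, at 0.76 (limma adjusted p = 0.336), was the one gene with an unadjusted p below 0.05 (3.23% of the members, 11.1% of all probes, 4.67% as higher). There 17 of the 31 were lower under quantiles (58.1% of all probes) and 26 under the 75th percentile (59.3%). The interaction, which is the change from OB to DKO minus that from WT to PPARg2KO, gave no call among the members or all probes. Gp2 (0.90, limma adjusted p = 0.274), Ptf1a (1.85, limma adjusted p = 0.314) and Serpini2 (2.40, limma adjusted p = 0.331) had an unadjusted p below 0.05 (9.68% of the members, 13.9% of all probes, 7.53% above 0), and 25 of the 31 genes had a value above 0 (44% of all probes were below 0), or 30 under the 75th percentile (42.5% below 0).

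A further list of 34 exocrine genes, receptors, transport and secretion proteins that serve the acinar cell, had 30 genes with a probe. In OB against WT 3 of them fell, where 1.91% of all probes were called as lower, and 25 of 30 were lower, where 60.3% of all probes were, with a median log2 fold change of -0.67. Gjb1 and Gjb2, the connexins of the acinar gap junctions, fell by 1.55 (limma adjusted p = 0.0349) and by 1.38 (limma adjusted p = 0.0490), and Rab27b, a small GTPase of granule release, fell by 1.86 (limma adjusted p = 0.0276). These calls did not hold under many of the 21 alternatives: Gjb1 passed in 10 (limma adjusted p up to 0.116), Gjb2 in 7 (up to 0.172) and Rab27b in 14 (up to 0.101). All 3 calls were lost without WT replicate 1, WT replicate 2, OB replicate 2 or OB replicate 3, that of Gjb1 also without OB replicate 1 or any DKO array, and that of Gjb2 also without any PPARg2KO or DKO array. With normexp the differences of Gjb1 and Rab27b were -0.34 and -0.65. These 3 genes are also active in other secretory or epithelial cells. Gjb1 had log2 signals of 6.51, 6.84 and 5.89 in WT and 4.55, 4.69 and 5.34 in OB without overlap, Rab27b had 7.66, 7.76 and 6.70 against 6.18, 5.09 and 5.27, and Gjb2 overlapped by a single array. The trypsinogen Try5 and the stress-responsive Nupr1, both among the brightest of the list, differed by 0.01 and -0.28. Cckar, the cholecystokinin receptor, had a difference of -1.15 (limma adjusted p = 0.0507). The secretin receptor Sctr was not well above background on any array and is given no difference of its own. It is 1 of 2 such genes among the 30, and both are still part of the list's counts and median. In the other 6 comparisons no gene of this list passed.

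Genes of other cells moved across the same arrays. In OB against WT 5.47% of all probes were called in either direction, 1.91% as lower, and the counts of genes past the criteria in the lists are to be read against these shares. Of 19 islet endocrine genes 3 rose in OB against WT and 16 were higher, at a median of 0.68, and 18 of the 19 were well above background on all arrays. Their mean deviation was -0.76, -0.29 and 0.57 in WT and 0.19, 0.68 and 0.42 in OB, while in DKO it ran from -0.48 to -0.11. Among the WT arrays replicate 1 was the highest in the exocrine mean and the lowest in the islet mean, and replicate 3 was the lowest in the former and the highest in the latter. Among the OB arrays replicate 1 was the lowest in both. Of 12 T and B cell genes 8 rose in OB against WT, at a median of 3.62, with 10 higher and 2 lower. The lower ones were Cd3e, with means of 8.22 in WT and 6.74 in OB, and Cd4, with 5.10 and 4.99. Of 7 endothelial genes 3 rose and all were higher, at a median of 1.27. Of 13 duct genes 2 fell, at a median of -0.42, of 7 macrophage genes 1 rose, and of the 9 stellate and fibroblast and 8 heat shock and immediate early genes none passed. Every gene of these lists with a probe was well above background on at least 1 array. The part of these cells in the exocrine differences was not tested.

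**Figure D5:**
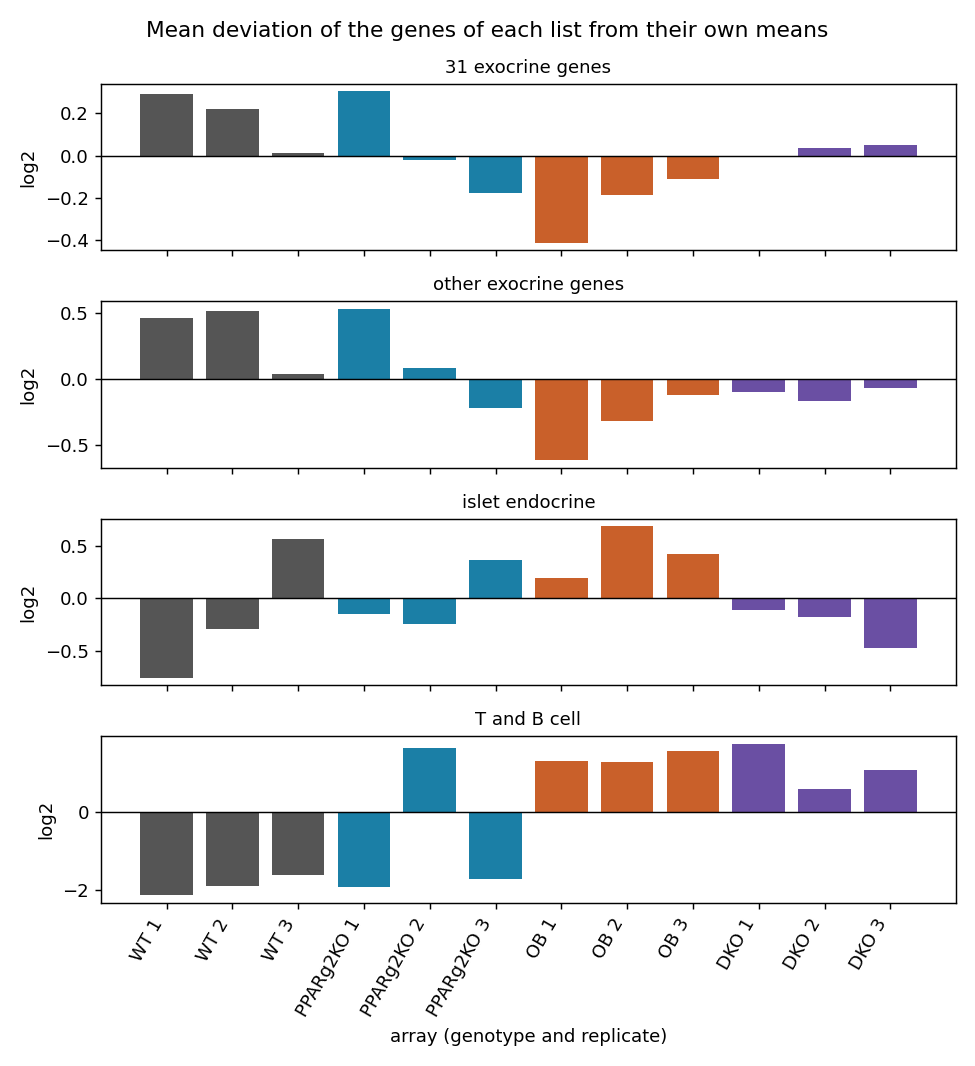
Mean deviation (log2, vertical axis, scaled per panel) of the genes of 4 lists from their own means on each of the 12 arrays, coloured by genotype. The 31 exocrine genes go from -0.41 in OB replicate 1 to 0.31 in PPARg2KO replicate 1, and the T and B cell genes are at 1.66 in PPARg2KO replicate 2 but below 0 in the other PPARg2KO arrays.

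The genes whose signal ran most like the exocrine mean were found among 11714 genes outside both lists that were well above background on all 12 arrays. By Pearson's r with the mean of the members' centred values over the 12 arrays, the highest were Lrrc75b (0.96), Krt16, Klk1b21, Gsx1, Klk1b4, Ces1e, Sowahb, Irgq, Ggt1 and Fgf11 (0.94), and the median of all 11714 was 0.12. Klk1b21 and Klk1b4 are kallikreins related to Klk1. Lrrc75b was at 7.77, 7.32 and 6.97 in WT, 7.77, 7.15 and 6.68 in PPARg2KO, 5.94, 6.59 and 6.48 in OB and 6.91, 7.02 and 6.93 in DKO, with OB lowest. The members had a median r of 0.59 with their own mean, which each of them is part of. Erp27 (0.91), Gp2 (0.90) and Pnliprp2 (0.90) were the closest. Cpa1 (-0.77), Cela3b (-0.66) and Prss2 (-0.55), all among the brightest, ran against it under quantiles, over ranges of only 0.14, 0.31 and 0.19. With the 75th percentile Cpa1 was at 18.18 in WT replicate 1, 18.25 in PPARg2KO replicate 1 and 17.93, 17.49 and 17.49 in OB. The arrays share a normalization, so the r values are a description.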

How the data were processed

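RNA of pancreatic islets was measured on 12 one-colour Agilent arrays, 3 for each of WT, PPARg2KO, OB and DKO, grouped by the genotype the labels give. The authors deposited the scanner output of each array, in which, per the file headers, Agilent Feature Extraction 10.1.1.1 had subtracted the background to give the processed signal, an intensity not normalized between arrays. The deposited series matrix holds the authors' normalized log2 values, whose exact steps are not given in the sources used here beyond quantile normalization in the methods, and it served as an alternative.

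The processed signal of 43379 non-control spots (41174 probes) was quantile normalized and put on the log2 scale, after which 919 outlier spots were dropped and replicate spots averaged per probe. No spot was saturated. A limma 3.58.1 fit in R 4.3.3 (lmFit and eBayes) used genotype as the factor over all 12 arrays, with Benjamini-Hochberg adjustment over 41174 probes. The criteria were an adjusted p of at most 0.05 and a log2 fold change of 1 or more in size. With 3 arrays a genotype, their number limits the precision. The script was tested on simulated data. Probes were named by unversioned RefSeq accession through the GRCm38.p6 gene table, which named 25097 probes and 17305 genes. Promoter sequences are those of RefSeq for that build, whereas the headers name mm9, so no coordinates of the array files were used.

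Each gene is given by its brightest probe. Values per array are given for the members with the largest spread, the brightest of each role, those past the criteria and others described; of the other exocrine genes, those past the criteria and the 3 brightest; and the 10 genes most like the members' mean. One gene that this rule takes in is not reported here. The lists are other exocrine, duct, islet endocrine, T and B cell, macrophage, stellate and fibroblast, endothelial, and heat shock and immediate early genes. The members and lists were chosen with earlier results of these data known. The replicate number is the slide, and the position on the slide is the genotype, so that position and genotype cannot be told apart. Alternatives were the 75th percentile, normexp (offset 50) on the median signal because no mean signal was at hand, a filter on dim probes, outlier spots kept, only the groups compared, the slide as a replicate block, array weights, the authors' values, all probes of a gene, adjusted p alone, and each array left out. Correlations of same-slide arrays in their deviations from the group means ran from -0.32 to 0.28.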

Additional observations from a re-analysis of the deposited data

How the results depend on the processing

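No member difference with an unadjusted p below 0.05 changed direction under any alternative run, but the medians near 0 did: in PPARg2KO against WT (-0.02) it was 0.01 with the 75th percentile, and those of DKO against WT and DKO against PPARg2KO also had either sign. In OB against WT 1 exocrine gene passed the criteria, and this count was 2 with the 75th percentile, the filter on dim probes and the replicate block, 4 with array weights, and 0 with only the groups compared and with the authors' values, and it ranged from 0 to 2 when an array was left out. Gp2 passed in 16 of 21 alternatives, with an adjusted p by limma between 0.00416 and 0.0781, and with the authors' values its log2 fold change was -0.85. In DKO against WT array weights gave 1 gene, in OB against PPARg2KO leaving out an array gave 0 to 2, and in DKO against PPARg2KO 0 to 1. The median log2 fold change with the 75th percentile was -0.61 in OB against WT, -0.17 in DKO against WT, 0.36 in DKO against OB, -0.56 in OB against PPARg2KO, -0.21 in DKO against PPARg2KO and 0.32 for the interaction, and with the authors' values it was 0.26 in DKO against OB. With an array left out it ran from -0.38 to -0.064 in OB against WT (the latter without OB replicate 1), from -0.37 to -0.039 in OB against PPARg2KO (the former without PPARg2KO replicate 3, the latter without OB replicate 1) and from 0.067 to 0.32 for the interaction. The causes were not tested. Same-slide arrays did not deviate together, so the replicate number was not taken as a pairing, and the replicate block added the call of Ptf1a in OB against WT. The position on the slide and the genotype cannot be told apart.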
